A study of Drosophila melanogaster with 10 samples.

Results

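Nascent RNA of ML-DmBG3-c2 cells, a cultured Drosophila line from the larval central nervous system, was compared between libraries labelled Sce RNAi and mock-treated libraries. The comparison uses 7 of the 10 libraries of the series, 4 labelled Sce RNAi and 3 mock, chosen by their titles, and describes all 7624 genes of the authors' table. Cells labelled Sce RNAi received double-stranded RNA against Sce, usually as an equal mixture of a pair of fragments, and the other cells are labelled as mock RNAi, with no agent named. The labels do not say whether replicates were separate cultures, so p-values measure the spread between these samples, which may be technical. The remaining 3 libraries, labelled Ph RNAi, appear below only for single values set side by side.

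Sce is the fly RING1 protein, the ubiquitin ligase subunit of Polycomb repressive complex 1 (PRC1), where it sits with Polycomb (Pc), Polyhomeotic (Ph) and Psc or its paralog Su(z)2. PRC1 marks histone H2A with ubiquitin and is best known for keeping developmental regulators such as the Hox genes silent in cells where they are not used. It is also found at genes that are being transcribed. Nascent RNA on chromatin reports the transcription of a gene rather than the store of its mature message.

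The values available were 1 mean per group and gene, with the authors' ratio, p and q. Values of single libraries, their spread and their depth are unknown, so no error stands beside a mean, and replicate error enters only through the q of the authors' deposited table. The words rose and fell are kept for genes with such a q under 0.05. Signal is given per gene as deposited, not per length, so it is compared between groups and not between genes. The columns summed to 192180746 for the libraries labelled Sce RNAi and 191793598 for mock, and how they were scaled is not stated, so a change of all genes at once may not show. Since bulk RNA was measured, fewer cells of a type and less RNA per cell cannot be told apart. Of 7 neuron markers 3 were listed, elav, CadN and Nrg, with mock means of 9594, 863517 and 12418, and nSyb, Syt1, brp and fne were not. The elav model is covered over 98.6% by other models. The neuroblast genes dpn, ase, wor and grh were not listed either. Among blood cell markers, Hml, lz and eater had mock means of 271, 239 and 227, srp had 73365, and He was not listed. The matrix genes Cg25C, vkg and Ppn, which blood cells share with other tissues, had 2029895, 1415310 and 656683.

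The targeted gene went against its label. The nascent signal of Sce was 293193 in the libraries labelled Sce RNAi, against 2475 in mock, a ratio of 118 with a p of 0.035 and a q of 0.377 by the authors' deposited table. Its total RNA, from other libraries, was 27.0 times mock with a p of 0.008 and a q of 0.198 by the authors' deposited table. The signal was higher and not lower under its own label, so the libraries are called by their label throughout and every direction below rests on it. No other gene model overlaps that of Sce in the reference annotation. Other targets were also higher under their own labels, ph-p and ph-d at 4.87 and 5.39 times mock in nascent RNA labelled Ph RNAi and Pc at 21.5 times mock in total RNA labelled Pc RNAi, by the authors' deposited table. Whether reads of the added double-stranded RNA were counted was not tested, so the values of the targeted genes may not measure their transcription.

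Few genes passed the threshold, and a gene that did not pass may still have changed. Of all genes, 9 had a q under 0.05 by the authors' deposited table, 0.118% of the 7624. Of these, 5 rose (0.0656% of all genes) and 4 fell (0.0525%). Genes at an unadjusted p under 0.05 numbered 755, 9.9% of the table, where chance gives 5%, and 352 of them were higher (4.62%) and 403 lower (5.29%). All 9 called genes had a p and a q listed at 0, which stands for values under 0.0005. The next gene by the authors' deposited table, EDTP, had a q of 0.062, so no q lies between. Benjamini-Hochberg values computed again from the 3 decimals of p put 23 genes under 0.05 with a listed 0 taken as exact, and 0 genes with it taken as 0.0005, so the printed decimals alone do not fix this list.

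The rises were in transcription factors, an RNA-binding protein, a lamin and an ion exchanger. The zinc finger homeodomain factor gene zfh2, which acts in appendage patterning, had a mean of 28066 in the libraries labelled Sce RNAi, against 2477 in mock, 11.3-fold higher. The zinc finger gene klu, a regulator of neuroblasts, had 6809 against 1052 in mock, 6.47-fold higher. LamC, the A-type lamin of flies, had 2919 against 543, 5.38-fold higher. The gene cpo, whose product binds RNA in neurons, had 16392 against 3298, 4.97-fold higher. Nhe2, a sodium/hydrogen exchanger gene, had 78069 against 46412, the smallest of the rises at 1.68-fold. Signal of zfh2, klu, cpo and Nhe2 in mock cells was above the 10th percentile of all nascent means, 581 units, which is used below as a floor, and that of LamC was just under it. The LamC model is wholly (100%) covered by other models, and the longest overlap is with ttv, whose own ratio was 0.842. The Nhe2 model is covered over 95.5%, with CG46307 the longest overlap, so reads of these genes cannot be assigned with certainty.

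The falls were in an esterase, a lipid phosphatase, a synaptic scaffold and a gene without a named function. The gene alpha-Est1, of the alpha-esterase family, had 613 in the libraries labelled Sce RNAi, against 2770 in mock, 4.52-fold lower. CG42390 had 169 against 419, 2.48-fold lower, and both of its means lay under the floor. The gene wun, a lipid phosphate phosphatase that guides migrating germ cells, had 26270 against 60432, 2.30-fold lower. The gene gukh, whose product binds the synaptic scaffold protein Discs large, had 71496 against 149111, 2.09-fold lower. Other models cover 0% to 0.688% of these 4 genes. The called genes lie on arms 4 (zfh2), 3L (klu), 3R (cpo, alpha-Est1, CG42390 and gukh), 2L (Nhe2) and 2R (LamC and wun).

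**Figure D1:**
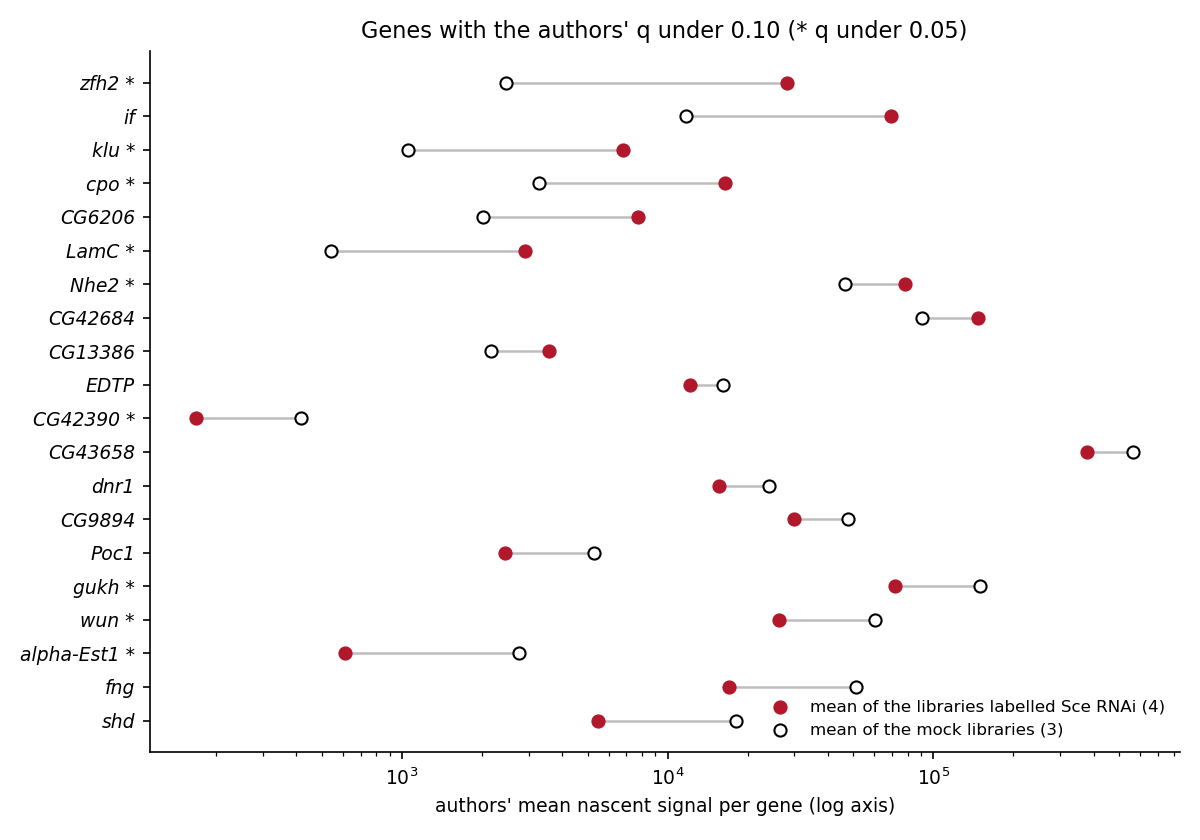
Authors' mean nascent signal per gene on a log axis for the 20 genes with a q under 0.10, filled points for the 4 libraries labelled Sce RNAi and open points for the 3 mock libraries, ordered by log2 ratio. Filled points lie right of open points for 9 genes, from zfh2 at 28066 against 2477 to CG13386, and left of them for 11, down to shd at 5480 against 18138. No error bars are drawn because values of single libraries were not given.

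Just outside the threshold, the authors' deposited table held 11 genes with q values between 0.062 and 0.093, 4 higher and 7 lower, none of which passed. At a q under 0.10 the table thus held 20 genes (0.262%), 9 higher (0.118%) and 11 lower (0.144%). The gene if, which encodes the alpha-PS2 integrin subunit, had 69248 in the libraries labelled Sce RNAi, against 11735 in mock, 5.90 times mock, and the authors' deposited table gave it a q of 0.093. CG6206 had 7718 against 2018, 3.83 times mock, and CG13386 and CG42684 were at 1.65 and 1.62 times mock. On the other side shd, the P450 that makes 20-hydroxyecdysone, had 5480 against 18138, 0.302 times mock. The glycosyltransferase gene fng, which modifies Notch, had 16997 against 51317, 0.331 times mock. Poc1, a centriole gene, was at 0.464 times mock, CG9894 at 0.629, dnr1, an inhibitor of immune caspase signalling, at 0.645, CG43658 at 0.670 and the phosphatase gene EDTP at 0.754. Their ratios ran from 0.302 to 5.90 times mock, and those of the called genes from 0.221 to 11.3, so the call depends on the q and not on size alone.

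Most of the table lay close to mock. Genes were counted as measurable where the mean over the Sce RNAi and mock columns was above 581, which kept 6883 and left out 741, among them 1 called gene, CG42390. With 581 added to each mean before the ratio was taken, the median log2 ratio over measurable genes was 0.01, and 88.0% of them lay within 1.5-fold of mock. The pseudocount shrinks ratios of low genes, so zfh2 stood at 3.23, klu at 2.18, cpo at 2.13, LamC at 1.64 and Nhe2 at 0.74 on this log2 scale, and alpha-Est1 at -1.49, wun at -1.18, gukh at -1.05 and CG42390 at -0.42. By size alone 110 measurable genes lay over 2-fold above mock (1.6%) and 62 over 2-fold below it (0.901%), 2.5% together. Of these 172, the authors' deposited table gave 114 an unadjusted p under 0.05. Split into 4 equal classes of signal, the share of genes at an unadjusted p under 0.05 was 5.98% in the lowest, 7.44% and 10.7% in the middle classes and 16.7% in the highest. The standard deviation of the log2 ratio across genes was 0.41, 0.43, 0.42 and 0.46 in the same order. The share was higher at stronger signal, while the spread of these ratios was similar. The pseudocount narrows the spread most in the lowest class, so the spreads of the classes are not directly comparable.

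**Figure D2:**
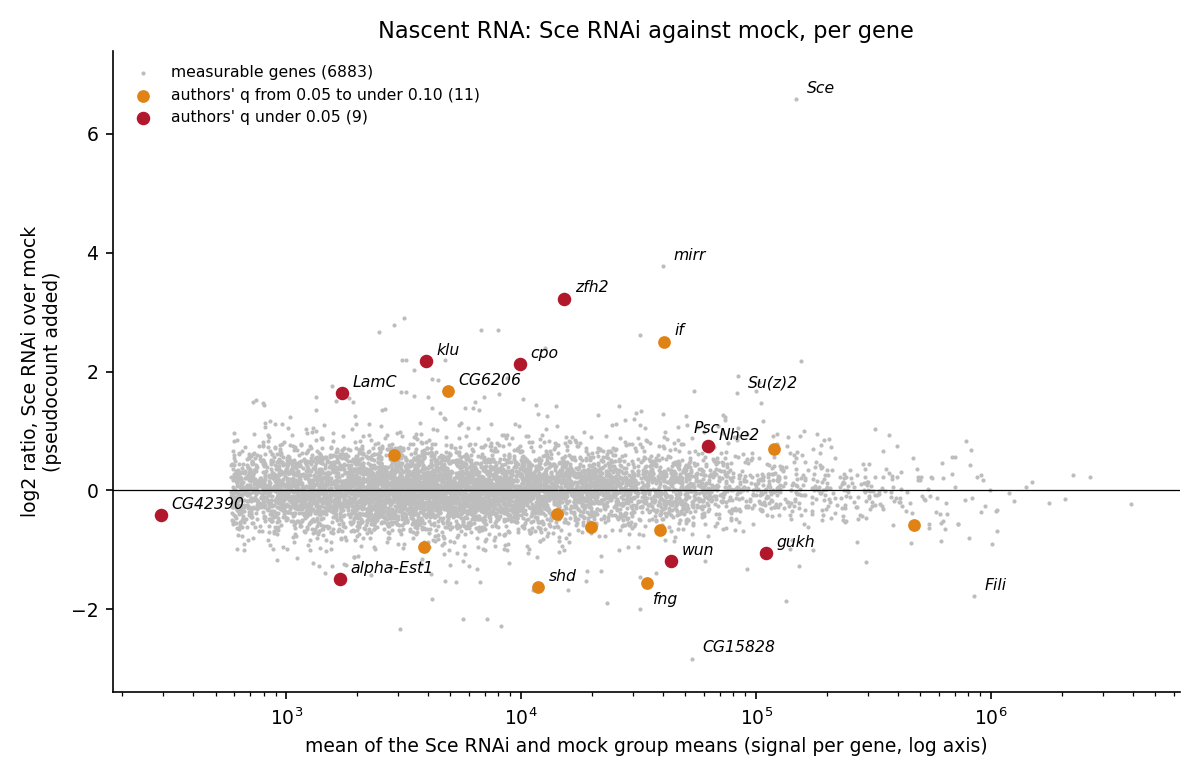
Log2 ratio of the libraries labelled Sce RNAi over mock, with 581 added to both means, against the mean of both groups on a log axis, 1 point per measurable gene plus CG42390. Called genes run from CG42390 on the left to gukh, with no called gene at higher signal than gukh, and Sce stands alone at 6.59 without passing.

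High-signal genes were those whose mean passed the median of measurable genes in each group (5490 in the libraries labelled Sce RNAi and 5485 in mock). Of these 3237 genes, 39 lay over 2-fold above mock (1.2%) and 25 over 2-fold below it (0.772%), 1.98% together. The highest was Ets21C, an ETS factor gene of stress and growth signalling, with 55384 in the libraries labelled Sce RNAi, against 8513 in mock, followed by if. CG43462 had 255663 against 55988. The BTB zinc finger gene mamo had 132777 against 34670. Sulf1, an extracellular sulfatase that edits heparan sulfate, had 160033 against 44733. Myo31DF, the myosin that sets left-right asymmetry, had 83275 against 25710, and the homeobox gene NK7.1 had 152688 against 47653. Su(z)2, Lmpt (a LIM protein gene) and Gld2 complete the 10 highest, at 3.13, 2.79 and 2.87 times mock. The Gld2 model is wholly covered by other models, with SKIP the longest overlap. None of the 10 passed, the authors' deposited table giving q values between 0.093 and 0.460.

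The 10 lowest high-signal genes ran from log2 ratios of -2.83 to -1.38, and none of them passed. CG15828 had 12753 in the libraries labelled Sce RNAi, against 94328 in mock, with a q of 0.394 by the authors' deposited table. The receptor tyrosine kinase gene Alk had 12488 against 51649. The gene shf, a secreted factor for Hedgehog spread, had 9565 against 36932, and the homeobox gene C15 had 57653 against 211396. Fili, a leucine-rich repeat membrane protein gene, had 381060 against 1311607 and was the 1 of these 10 that ranks among the 10 genes of highest mock signal. CG34380, fng, ome (a dipeptidyl peptidase gene), Adgf-A (an adenosine deaminase gene) and CG42241 were at 0.296, 0.331, 0.333, 0.358 and 0.377 times mock. The model of Adgf-A is covered over 74.2% by other models, with Adgf-A2 the longest overlap. Of the other 9 genes with the highest mock signal, klar, Ten-m, pum, Cg25C, hdc, vkg, sick and x16 were between 0.849 and 1.19 times mock. The last, nop5, was at 0.536 with a p of 0.159 by the authors' deposited table. Its model is wholly covered by other models, with x16 the longest overlap.

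Genes of PRC1 itself were followed next, since Sce works within the complex. None of 16 genes encoding PRC1 subunits and partners passed the threshold, and 3 had an unadjusted p under 0.05, all higher, where 4.62% of all genes were higher at that mark. Besides Sce these were the paralogs Su(z)2 and Psc, which lie next to each other and encode the subunit that pairs with Sce. Su(z)2 had 125771 in the libraries labelled Sce RNAi, against 40182 in mock, with a p of 0.001 and a q of 0.119 by the authors' deposited table. Psc had 102522 against 41974, with a p of 0.013 and a q of 0.289 by the authors' deposited table. Both passed in total RNA, at 5.81 times mock with a q of 0.005 and 2.78 times mock with a q of 0.045 by the authors' deposited table. The other 13 members had no unadjusted p under 0.05. The chromodomain gene Pc had 6793 against 6427 (77.1% of its model covered by others), ph-p had 17463 against 18685, ph-d had 10399 against 10729, and Scm, the sterile alpha motif partner of Ph, had 10347 against 7102. The DNA-binding recruiters pho and phol were at 1.11 and 1.45 times mock, Sfmbt at 1.02, the demethylase gene Kdm2 at 1.02, RYBP at 1.03, the RING finger gene l(3)73Ah at 1.66, cg at 1.00, and the H2A deubiquitinase genes Asx and calypso at 1.37 and 0.706.

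The PRC2 complex, which methylates histone H3, and the trithorax group, which opposes Polycomb silencing, gave smaller values. Of 8 PRC2 genes none passed, the median log2 ratio was -0.02, and jing at 1.62 and the histone chaperone gene Caf1 at 0.643 times mock had an unadjusted p under 0.05. The methyltransferase gene E(z) was at 0.822 times mock, esc, whose model is wholly covered by others, at 0.832, Su(z)12 at 1.29 and Pcl at 1.17. All 23 trithorax group genes lay between log2 ratios of -0.33 and 0.40, and 0 had, by the authors' deposited table, an unadjusted p under 0.05. Over all genes 9.9% were at that mark, and neither list was tested against this share. The chromatin remodelling genes kis and osa, of the highest mock signal among them, had 413913 against 409401 and 289909 against 268730 in mock.

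Among transcription factor and signalling genes known as Polycomb targets, 1 rose and none fell. Of 79 genes on that list 44 were in the table, and the 1 that passed was zfh2. At an unadjusted p under 0.05, 13 of the 44 were higher (29.5%, against 4.62% of all genes) and 3 were lower (6.82%, against 5.29%). The list was chosen with earlier results of these data known, so this contrast describes it and is no support for a direction. The 13 were mirr, zfh2, Abd-B, Vsx1, Antp, Poxm, tsh, NK7.1, bi, Dr, tup, Ubx and salr. The eye and wing selector mirr had 75562 in the libraries labelled Sce RNAi, against 4970 in mock, 15.2 times mock with a q of 0.135 by the authors' deposited table. The posterior Hox gene Abd-B had 6052 against 310, the thoracic Hox genes Antp and Ubx had 5469 against 743 and 1304 against 316, and the eye homeobox gene Vsx1 had 5436 against 295. The trunk selector tsh had 7282 against 1587, the muscle gene Poxm 5949 against 1014, the T-box gene bi 2284 against 385, the LIM homeobox gene tup 1437 against 353, the homeobox gene Dr 1344 against 103 and the zinc finger gene salr 763 against 199. The bi model is covered wholly and that of Antp over 60.3% by other models. Abd-B, Ubx, Vsx1, bi, tup, Dr and salr had mock means under the floor of 581, so the size of their ratios is uncertain.

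The 3 lower genes of that list lay in the highest of the 4 classes of signal per gene, which also depends on gene length. C15 is described above. Lim1 had 320768 in the libraries labelled Sce RNAi, against 592137 in mock, and hth, the cofactor that takes Hox partners to DNA, had 583123 against 867613. Of the same class, inv, bab2 and pnr were at 0.706, 0.765 and 0.820 times mock, zfh1 and ct at 1.16 and 1.09, without an unadjusted p under 0.05. In the highest of the 4 signal classes the list had 10 genes with a median log2 ratio of -0.34, 4 above 0 and 6 below. In the lower 3 classes it had 10, 6 and 3 genes with medians of 0.89, 2.11 and 0.10, and 17 of these 19 were above 0. A gene can enter the lower classes through its signal in either group, and 10 of the 29 measurable members had a mock mean under 581, so these medians describe the list and are no support for a direction. The list's median over its 29 measurable genes was 0.66, and it was -0.39 when means above the median gene were asked of both groups. The 15 members under the floor, 13 of them with a ratio above 1, included oc, abd-A, cad, ap, salm, wg and Optix.

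**Figure D3:**
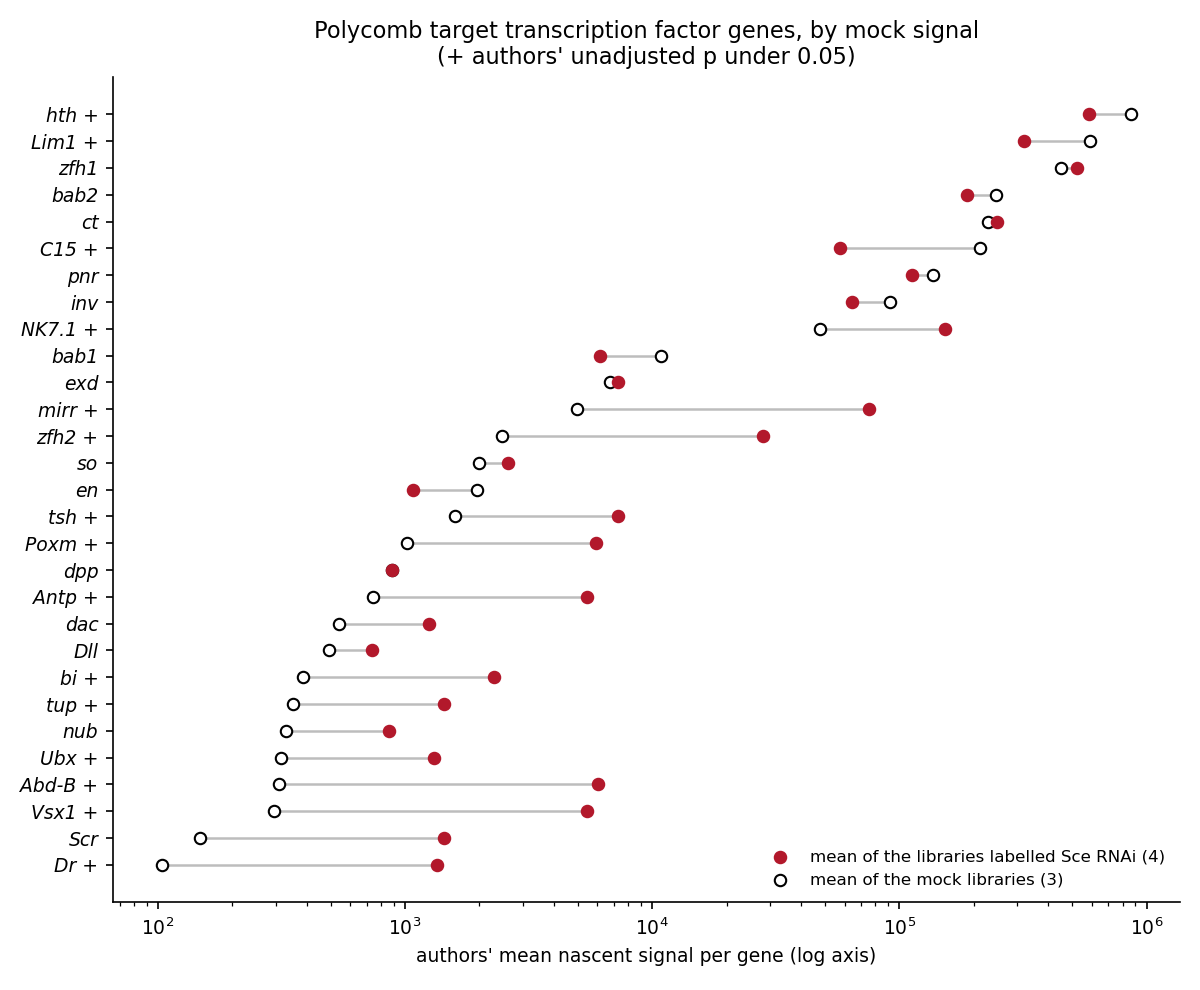
Authors' mean nascent signal on a log axis for the 29 measurable Polycomb target genes, filled points for the libraries labelled Sce RNAi and open points for mock, ordered by mock signal from the bottom. Filled points lie right of open points for most genes with low mock signal, such as Abd-B at 6052 against 310, and left of them for hth, Lim1, bab2, C15, pnr and inv near the top.

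Genes related in function to the called ones were listed beside them. The called genes are members by that choice, so their counts say nothing about the lists. Over all genes 0.0656% rose and 0.0525% fell. Among 16 zinc finger factors of the nervous system zfh2 and klu rose and the median was -0.01, with chinmo, a BTB factor, at 4.66 times mock (p 0.001) and psq at 0.785 (p 0.015) by the authors' deposited table. Among 18 RNA-binding protein genes cpo alone rose, the median was -0.09, and orb2 (98.9% of its model covered), mub and brat were at 0.634, 0.841 and 0.868 times mock with p under 0.05. Of 13 genes of the lamina and nuclear envelope LamC was the 1 that rose. The other members lay at log2 ratios from -0.24 to 0.37, including klar, the gene with the highest mock mean of the table, at 3627878 against 4273300. The paralog of wun, wun2, had 5058 against 17437 with a p of 0.032 and a q of 0.376 by the authors' deposited table, and rdgA and Plc21C of the same lipid list were at 0.818 and 0.852 times mock. Among 13 synapse genes gukh fell, and its binding partner gene scrib was at 0.837 times mock, wit at 0.431, RhoGAP100F at 0.597 and futsch at 2.02, each with an unadjusted p under 0.05.

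None of the signalling and guidance genes passed. Counts below are at an unadjusted p under 0.05, where 4.62% of all genes were higher and 5.29% lower. The lists were not tested against these shares. For axon guidance 2 of 25 genes were higher and 6 lower at an unadjusted p under 0.05, with a median log2 ratio of -0.23. The midline repellent gene sli had 586255 in the libraries labelled Sce RNAi, against 1020770 in mock, Sema-5c had 73808 against 146840, Sema-2b had 5719 against 11379 and Ten-a had 933479 against 1175956. The gene comm, which removes Robo receptors from growth cones, had 57101 against 23170. For the Notch pathway 0 of 21 were higher and 3 lower, the receptor gene N itself with 129109 against 190770 (p 0.011 by the authors' deposited table), fng and the target gene HLHmbeta at 0.406 times mock. The counts were 2 higher and 3 lower of 26 Wingless and Hedgehog genes, where the receptor gene ptc was at 1.52 and Wnt4 at 1.82 times mock and shf and the receptor gene fz at 0.259 and 0.642. Receptor tyrosine kinase and Ras genes had 2 higher, the ligand gene Pvf3 at 1.90 and the Raf gene phl at 1.34 times mock, and 2 lower, Pvf1 at 0.627 and sev at 0.374, of 28. JAK/STAT genes had 2 higher, the cytokine gene upd3 at 6.79 times mock and chinmo, and 1 lower, Stat92E at 0.820, of 11. Ecdysone-response genes had 2 higher, ImpL2 at 1.89 and Eip75B at 1.47 times mock, and 1 lower, E23 at 0.363, of 15.

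Adhesion and matrix genes split within the list. The integrin subunit genes if and mys were at 5.90 and 1.69 times mock, while the laminin gene LanB1 had 437760 in the libraries labelled Sce RNAi, against 788952 in mock, and the perlecan gene trol had 813068 against 1299742, each with an unadjusted p under 0.05 and none with a q under 0.05 by the authors' deposited table. The collagen genes Cg25C and vkg had 2421361 against 2029895 and 1566870 against 1415310. The list's median over 14 genes was 0.09, and -0.03 after quantile normalization. At an unadjusted p under 0.05 innate immunity genes had 2 of 20 higher and 0 lower, against 4.62% and 5.29% of all genes. The higher ones were the Toll ligand gene spz at 3.41 times mock and the NF-kappaB gene Rel at 1.78. The Rel model is wholly covered by other models.

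Lists of cell maintenance genes had medians on both sides of 0. At an unadjusted p under 0.05, the mark used for them, 4.62% of all genes were higher and 5.29% lower. DNA replication had the lowest median among lists with 5 or more measurable genes, -0.33, with 0 of 34 genes higher and 6 lower at an unadjusted p under 0.05, among them the ribonucleotide reductase gene RnrL, the thymidylate synthase gene Ts, the polymerase gene DNApol-epsilon and the helicase gene Mcm6 at 0.637, 0.619, 0.656 and 0.685 times mock. For mitosis the median was -0.17 with 0 higher and 6 lower of 36, among them BubR1, polo, CycA and CycB3 at 0.595, 0.664, 0.704 and 0.739. For the proteasome it was -0.18, and 0 of 31 genes were at that mark in either direction. Ribosomal protein genes had 0.12 with 0 of 61, RNA polymerase II subunits 0.13 with 0 of 11, pausing and elongation factors 0.11 with 0 of 22, and cohesin 0.04 with 1 lower, SA, of 11. Heat shock genes had a median of 0.54 and glycolysis 0.35, the highest after the Polycomb targets among lists with 5 or more measurable genes, and 0 of 20 and 0 of 13 were at that mark. Of 19 measurable heat shock genes 17 were above 0 and 5 lay over 2-fold above mock. The heat shock list holds near-identical Hsp70 copies, and how reads matching more than 1 copy were counted is not stated. No gene of these lists was called. Ion transporters had a median of -0.02 with Nhe2 the 1 that rose, and esterases and P450 genes -0.09 with alpha-Est1 the 1 that fell. Both lists were chosen with earlier results known, so these called members say nothing about them. In total RNA the log2 medians of all listed members lay on the other side of 0 for some lists. They were 0.11 for DNA replication, 0.28 for mitosis and 0.23 for the proteasome. Ribosomal protein genes had -0.41 there and heat shock genes -0.34. At an unadjusted total RNA p under 0.05, 6 mitosis and 6 proteasome genes were higher and 0 lower. Over all genes these shares were 9.27% and 2.3%.

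Markers of other cell types were set beside these lists. Of 7 neuron markers 3 were listed, and these had a median of -0.09 and a summed signal of 609667 in the libraries labelled Sce RNAi, against 885529 in mock, most of it from CadN. By the authors' deposited table CadN was at 0.676 times mock (p 0.002), elav at 0.937 and Nrg at 1.40. Of 5 glia markers 4 were listed, with a median of -0.27 and sums of 65253 against 63382, and the 4 were at 0.560 (repo, the defining gene), 0.474 (Gli), 1.09 (moody) and 1.45 (nrv2) times mock, nrv2 with an unadjusted p under 0.05. The moody model is wholly covered by other models, and the glia median was 0.32 among high-signal genes. Of 6 neuroblast markers mira and pros were listed, with sums of 14108 against 12166, and the mira model is wholly covered by other models. Of 5 germ line markers bam and aub were listed, with sums of 2968 against 3681, and vas, nos and piwi were not. Of 8 blood cell markers 7 were listed, with sums of 4589008 against 4175990, and of 7 muscle markers 5, with sums of 524145 against 544596 and without Mhc and up. None of the 4 fat body markers was listed. Their part in the results above was not tested.

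**Figure D4:**
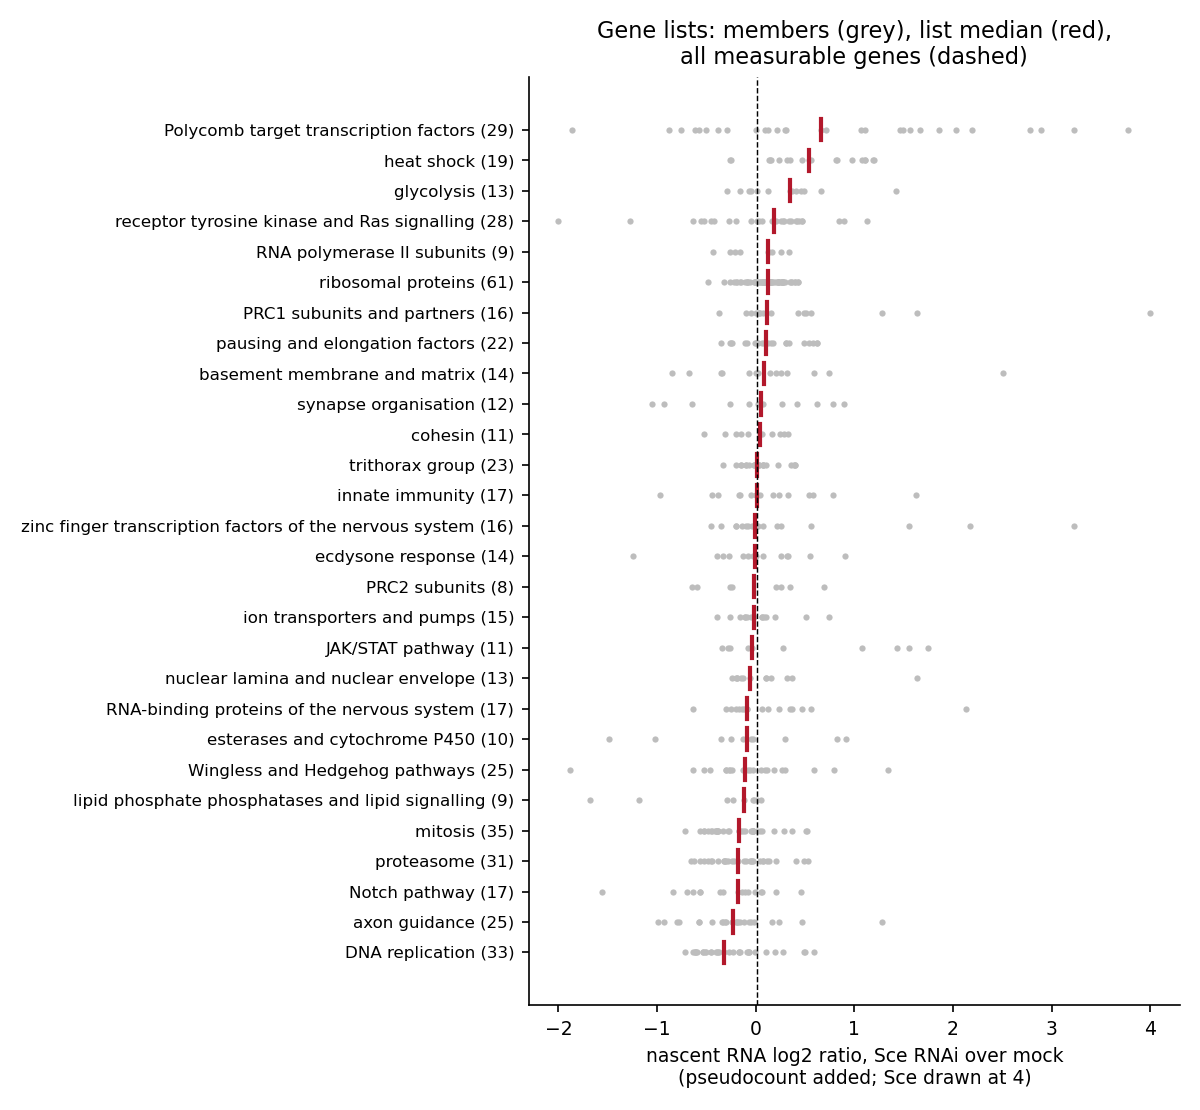
Nascent log2 ratio of the libraries labelled Sce RNAi over mock for each measurable member (grey points) of the lists with 5 or more such genes, with the list median as a red bar and the median of all measurable genes, 0.01, as a dashed line. List medians run from -0.33 for DNA replication to 0.66 for Polycomb targets, and members of each list lie on both sides of the line. Sce, at 6.59, is drawn at 4.

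Total RNA of the same treatment, given by the authors' deposited table from libraries that are not among the 10 samples, was set beside the nascent values. Whether these libraries shared cultures with the nascent ones is not stated. Of the 9 called genes 8 had a total RNA ratio on the same side of 1, and 6 of them an unadjusted p under 0.05 there, but none a q under 0.05. Over all genes these shares in total RNA were 11.6% at that p and 0.249% at that q. With so few calls in either assay, the absence of shared ones tells little. Total RNA ratios by the authors' deposited table were 11.1 for klu, 3.64 for zfh2, 3.47 for cpo, 1.46 for Nhe2, 1.24 for LamC, 0.486 for gukh, 0.464 for wun and 0.223 for alpha-Est1. CG42390 lay on the other side, at 1.80 with a p of 0.455 by the authors' deposited table. Among all measurable genes with a nascent ratio above 1, 65.8% had a total RNA ratio above 1, and 53.6% of those below 1 had one below 1. For the 64 high-signal genes over 2-fold by size, 32 of 39 higher and 23 of 25 lower ones were on the same side, where the shares over all 3237 such genes were 74.8% and 43.9%. Pearson's r of the log2 ratios across the 6883 measurable genes was 0.36 and Spearman's rho 0.29, a description across genes, which are not replicates.

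Total RNA called more genes, nearly all of them higher. At a q under 0.05 the authors' deposited table held 19 genes in total RNA (0.249%), 18 higher (0.236%) and 1 lower (0.0131%), none of them among the 9 nascent calls. The 1 that fell was Adgf-A at 0.385 times mock, whose nascent signal was 16939 in the libraries labelled Sce RNAi, against 47303 in mock, with a q of 0.135, both by the authors' deposited table. Those that rose included Abd-B, NK7.1, Psc, Su(z)2, Grip (a scaffold gene) and CG33993, with nascent signal at 19.5, 3.20, 2.44, 3.13, 2.13 and 18.9 times mock. Total RNA of aPKC, a cell polarity kinase gene, was at 1.60 times mock, with a nascent ratio of 1.21, by the authors' deposited table. CG5886 and Cyp6v1, both called higher in total RNA, had nascent ratios of 0.976 and 0.998 by the authors' deposited table. At an unadjusted p under 0.05 total RNA had 882 genes (11.6%), 707 higher (9.27%) and 175 lower (2.3%).

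**Figure D5:**
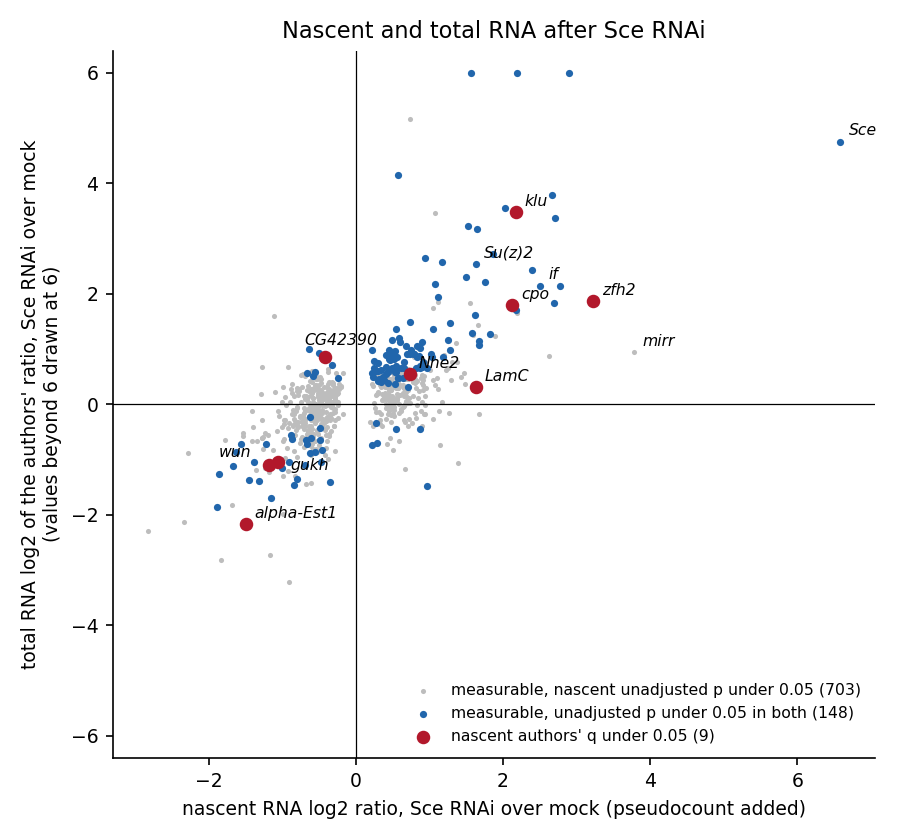
Total RNA log2 ratio (authors' ratio, values beyond 6 drawn at 6) against the nascent log2 ratio with 581 added, both for the libraries labelled Sce RNAi over mock, for measurable genes with an unadjusted nascent p under 0.05 (grey), those also under 0.05 in total RNA (blue) and the 9 nascent calls (red). Most blue points lie in the upper right or lower left, and CG42390 is the red point off that diagonal.

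Some of the named genes had different values in the libraries labelled Ph RNAi, which were compared with the same mock libraries, so the ratios are not independent and their difference was not tested. The gene gukh fell to 0.480 times mock in the libraries labelled Sce RNAi and stood at 1.66 times mock in those labelled Ph RNAi, where the authors' deposited table gave it a q of 0.044. CG42390 was at 0.403 and 24.9 times mock, fng at 0.331 and 1.58, ome at 0.333 and 3.19, and sev at 0.374 and 10.2 in the same order. For zfh2, klu, cpo and LamC the values were 11.3 and 48.5, 6.47 and 3.72, 4.97 and 27.1, and 5.38 and 11.4. For alpha-Est1, wun and Nhe2 they were 0.221 and 0.033, 0.435 and 0.332, and 1.68 and 1.76. Nascent q values of fng, ome and sev were 0.093, 0.508 and 0.310 under the Sce RNAi label, by the authors' deposited table. Under the Ph RNAi label they were 0.176, 0.104 and 0.017, with 0.059 for CG42390. Total RNA labelled Sce RNAi was above mock for ome, sev and CG42390, at 3.29, 1.59 and 1.80 times mock. It was below mock for gukh and fng, at 0.486 and 0.609.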

How the data were processed

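Nascent RNA was isolated from chromatin of ML-DmBG3-c2 cells, depleted of uncapped and polyadenylated RNA and made into barcoded Ion libraries from native 3' ends, per the labels' protocols. SAMtools and bedtools are named in the submitters' processing notes. Not given in the sources used here are the aligner, genome build, annotation, strand handling and statistical test. The authors deposited a mean signal per gene and group and, per the file headers, a ratio to mock with a p-value and q-value, each with 3 decimals. The deposited ratios equalled the quotient of the means within 1% plus 0.001 in 7624 of 7624 genes. The table's 4 columns of total RNA means match no sample and were not used. Depth per library is unknown.

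Log2 ratios were computed after adding 581, the 10th percentile over all nascent group means, which was also the filter on the mean of both groups (Python 3.11.15, pandas 2.3.3), and the functions were tested on simulated data. No test of replicates was possible from means. The design foresaw limma for values per library, which were not given. For total RNA the log2 of the deposited ratio was taken. Symbols were matched to the Ensembl 115 annotation for 7517 genes, to find overlapping models and arms only.

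Named were Sce and 19 other PRC1 and PRC2 genes, all genes with q under 0.10, the 10 highest and 10 lowest log2 ratios above the median gene, the 10 genes of highest mock mean, genes called in total RNA against their nascent direction and, from each of 35 lists, up to 4 genes with unadjusted p under 0.05 and the 2 of highest mock mean. Further Polycomb targets, total RNA examples, marker genes, ttv and the genes of the closing section were named after their values were seen. Members and lists were chosen with earlier results of these data known.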

Additional observations from a re-analysis of the deposited data

How the results depend on the processing

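No paired analysis was possible because the table holds group means, and leaving out replicates was not possible for the same reason. The count of 9 genes by the authors' q (5 higher, 4 lower) stayed at 9 with a threshold of 0.01, was 20 (9 and 11) at 0.10, 23 (11 and 12) with Benjamini-Hochberg values from the rounded p with a listed 0 taken as exact, and 0 with it taken as 0.0005, a reading that leaves 755 genes at an unadjusted p under 0.05. Without models covered by others over more than 50% of their length 7 were left, 3 higher and 4 lower. The count of 172 genes over 2-fold by size (110 higher, 62 lower) was 52 (29 and 23) with a pseudocount 10 times larger, 311 (180 and 131) with one 10 times smaller and 64 (39 and 25) among high-signal genes. It moved by less than 1.5 times with no filter, quantile normalization, centring, a filter on mock alone and without covered models, the last 2 chosen after seeing the data. Of the 8 called genes on the same side in total RNA, 0 also had a q under 0.05 there, against 0.249% of all genes. An unadjusted p under 0.05, also chosen after seeing the data, was found for 6, against 11.6% of all genes. The median of all measurable genes ranged from -0.016 with quantile normalization to 0.019, and quantile normalization turned the list medians of trithorax genes to -0.02 and of matrix genes to -0.03. No called gene changed sign with the pseudocount or scaling. The list median of Polycomb targets turned to -0.39, of RNA polymerase II subunits to -0.34, of cohesin to -0.11 and of PRC2 to 0.23 among high-signal genes. There the medians of glia markers, of esterases and P450 genes and of ion transporters turned to 0.32, 0.12 and 0.02. Those of neuroblast markers and ecdysone-response genes turned to -0.02 and 0.003. The causes were not tested.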

Other observations

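Genes with an unadjusted p under 0.05 in both nascent and total RNA after treatment labelled Sce RNAi, chosen after their values were seen, numbered 155. That is 20.5% of the 755 nascent genes at that mark, where 11.6% of all genes were at it in total RNA. It is also 17.6% of the 882 total RNA genes, where 9.9% of all genes were at it in nascent RNA. Both ratios were above 1 for 110 of the 155 and below 1 for 32, and 13 lay on opposite sides. Among the high-signal ones the cytoskeletal linker gene shot had nascent signal of 499082 in the libraries labelled Sce RNAi, against 295915 in mock, the vinculin gene Vinc had 113691 against 77588, and the microtubule genes chb and Patronin 69759 against 48468 and 78179 against 55568. By the authors' deposited table none of these had a q under 0.05. The cyclin gene CycE lay on opposite sides, with nascent signal of 39097 against 55615 and total RNA at 1.89 times mock, and so did the splicing factor gene SF2, with 62340 against 42353 and total RNA at 0.733 times mock, both total RNA values from the authors' deposited table.

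By chromosome arm the median nascent log2 ratio lay between -0.03 on 2L and 0.03 on 3R, and it was -0.10 over the 57 measurable genes of the small chromosome 4. Over 2-fold above and below mock lay 38 and 10 of 1605 measurable genes on 3R, 20 and 15 of 1286 on 3L, 20 and 14 of 1291 on 2L, 14 and 14 of 1348 on 2R, 15 and 8 of 1197 on X and 1 and 0 on chromosome 4, against 1.6% and 0.901% of all measurable genes. Differences between arms were not tested.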
